A study of Mus musculus with 12 samples.

Results

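Oxidative phosphorylation (OXPHOS) genes encoded in the nucleus were taken from the RNA-seq table by symbol: every row whose mouse symbol starts with Nduf, Uqcr, Atp5 or Cox followed by a digit from 4 to 8, and Sdha to Sdhd. The rule used no measured value. It matched 93 of the 15651 genes of the table, and 3 of these were pseudogenes (Ndufab1-ps, Atp5l-ps2 and Ndufb4c) and were left out, leaving 90 genes. Of these, 36 encode subunits of complex I, 4 of complex II, 8 of complex III, 18 of complex IV (with Ndufa4 and its paralog Ndufa4l2, since the Ndufa4 protein is a subunit of complex IV) and 15 of complex V. These 81 genes are called the structural subunits here. Another 8 genes, Ndufaf1 to Ndufaf8, encode complex I assembly factors, and Atp5s encodes a factor associated with complex V. Atp5g2, Cox7b2 and Cox8c were not analysed here.

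The cells were leukemic splenocytes, enriched for c-Kit, from moribund mice with acute myeloid leukemia (AML). D/F mice were Dnmt3afl/fl, Flt3ITD/ITD, Mx1Cre and T/F mice were Tet2fl/fl, Flt3ITD/ITD, Mx1Cre, so both genotypes carried the internal tandem duplication of Flt3 and the interferon-inducible Mx1-Cre transgene, and they differed in the floxed gene. The methods describe leaky Mx1-Cre activity, without induction, as the source of the deletion. Cells of 3 mice of each genotype were split between CCS1477, an inhibitor of the bromodomains of the histone acetyltransferases p300 and CBP, and the vehicle dimethyl sulfoxide (DMSO), for 6 hours, which gave 12 libraries of 6 mice. D/F cells received 4 µM CCS1477 and T/F cells 2 µM, so genotype and dose cannot be told apart in the response. The values are TPM, a level scaled by transcript length and to the library's total. A change shared by all transcripts of a cell would therefore not show in them.

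Complexes I to IV make up the respiratory chain of the inner mitochondrial membrane. Complex I takes electrons from NADH and complex II from succinate, coenzyme Q passes them to complex III and cytochrome c to complex IV, where oxygen is reduced. Complexes I, III and IV pump protons, and complex V, the ATP synthase, uses the gradient to make ATP. All complexes but complex II also hold subunits encoded by mitochondrial DNA, and assembly factors join both sets without staying in the finished enzyme. AML cells are known to depend on OXPHOS, and Myc and the coactivators of the PGC-1 family are known to promote the expression of its genes.

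Whole-table features that bear on these genes were as follows. The 12 libraries summed to between 914204 and 931697 TPM, and the 90 genes took 1.06 to 1.57% of it. D/F replicate 2 stood apart, with 1.14% under DMSO and 1.06% under CCS1477 against 1.44 to 1.57% in the other 10 libraries, the lowest value of its group for 66 of the 90 genes under DMSO and for 77 under CCS1477, and a Pearson r across genes of 0.947 to 0.958 with the other D/F replicates of its group (0.979 to 0.983 between those). D/F calls are therefore also given without it. The summed TPM of 10 progenitor and AML markers (Kit, Cd34, Mpo, Elane and others) was 4150 to 10435 in D/F under DMSO and 899 to 4356 under CCS1477, and 4462 to 6676 and 1774 to 3105 in T/F. All 10 genes had a row, with Ptprc at 0.826 to 3.11 TPM, and the sum was lower under CCS1477 in all 6 mice. The summed TPM of 7 mature neutrophil markers ranged in D/F between 2681 and 9425 under DMSO and between 1629 and 9322 under CCS1477, and in T/F between 2333 and 7155 and between 2492 and 6900. Most of that sum was S100a8, S100a9 and Ngp, and the markers went different ways. Camp, Mmp8 and Retnlg were lower under CCS1477 in all 6 mice. Ltf was higher in every mouse but D/F replicate 2, and Ngp was higher in every T/F mouse. Of 6 macrophage markers, 4 had a row, and their sum was lower under CCS1477, at 15.995 to 22.3 against 2.72 to 4.31 TPM in D/F and 19.3 to 32.1 against 5.93 to 12.3 TPM in T/F. The 2 of 6 stroma and endothelium markers with a row summed to 57.8 to 161 TPM under DMSO and 16.8 to 27.8 TPM under CCS1477. Most of that sum was 1 gene, Pecam1, with Pdgfrb at 0.878 to 11.6 TPM over the 12 libraries. The sum of 4 megakaryocyte markers was lower under CCS1477 in all 6 mice, at 212 against 65.4 TPM in D/F replicate 2, 34.9 to 50.3 against 20.1 to 27.9 TPM in the other D/F mice and 49.4 to 56.6 against 32.7 to 35.2 TPM in T/F. The 3 of 6 B cell markers with a row summed in T/F to 49.8 to 59.0 TPM under DMSO and 104 to 132 TPM under CCS1477, and in D/F to 25.8 to 51.8 and 20.9 to 49.5 TPM. In T/F that rise was Ighm alone, at 34.5, 33.1 and 41.7 TPM against 93.1, 95.4 and 118 TPM. Cd79b and Pax5 were lower under CCS1477 in every T/F mouse. The 7 of 8 erythroid markers with a row summed to 12.5 to 34.0 TPM under DMSO and 10.8 to 25.8 TPM under CCS1477, and the 4 of 8 T and NK cell markers with a row to 15.8 to 28.1 and 13.8 to 23.5 TPM. The erythroid sum was lower under CCS1477 in all 6 mice, although Alas2 was higher in D/F replicate 2 and T/F replicate 1. The T and NK cell sum was lower in every mouse but T/F replicate 3. The part of these markers in the results was not tested, and in bulk samples fewer cells of a type and less RNA per cell cannot be told apart.

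Relative to the rest of each library, the summed levels of the complexes moved little with CCS1477. In T/F the sums of complexes I, II and IV were slightly higher in every mouse. Summed over the 81 structural subunits, the TPM were 13327, 10366 and 13935 in the 3 D/F mice under DMSO and 13882, 9499.7 and 14189 under CCS1477, and 13951, 13436 and 13116 against 14428, 14262 and 13648 in T/F. The ratio of CCS1477 to DMSO within a mouse was 0.992 ± 0.067 (SD, n = 3 mice) in D/F and 1.05 ± 0.014 in T/F. The only D/F mouse in which the sum was lower was replicate 2, at 0.916, against 1.04 and 1.02 in the others.

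By complex, the ratio in D/F was 1.00 ± 0.052 for complex I, 0.987 ± 0.075 for complex II, 1.02 ± 0.043 for complex III, 1.00 ± 0.074 for complex IV and 0.968 ± 0.081 for complex V. Without replicate 2 these D/F means were 1.03, 1.03, 1.04, 1.04 and 1.01. In T/F it was 1.06 ± 0.012, 1.03 ± 0.028, 1.01 ± 0.025, 1.08 ± 0.017 and 1.02 ± 0.020 (SD, n = 3 mice each). The 8 Ndufaf assembly factors, which sum to a far lower level, were the only set below 1 in all 6 mice, at 0.827 ± 0.027 (D/F) and 0.854 ± 0.063 (T/F). Much of this fall was Ndufaf4. In T/F replicate 2 the sum went from 164 to 150 TPM and Ndufaf4 alone from 33.2 to 9.18 TPM. The other factors together were therefore not lower in that mouse. In every other mouse the sum fell by more than Ndufaf4 did, so the other factors together were lower. Single factors went both ways, as given further on.

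**Figure D1:**
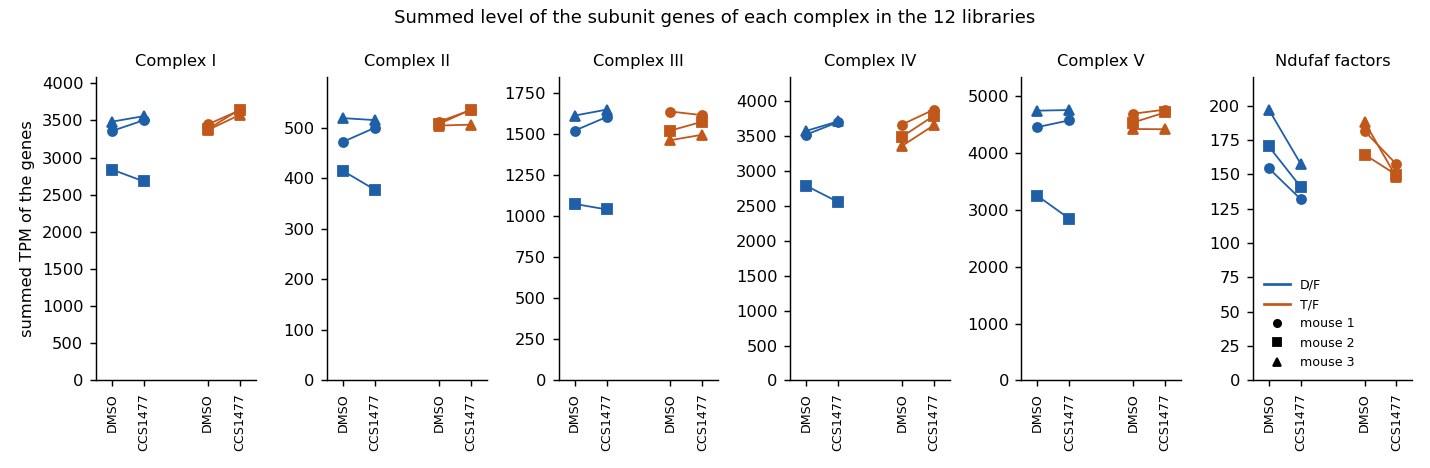
Summed TPM of the genes of complexes I to V and of the 8 Ndufaf assembly factors (vertical axes, each from 0) in the 12 libraries; lines join the DMSO and CCS1477 cells of 1 mouse, in blue for D/F and orange for T/F, with a symbol for each mouse. The complexes stay near a ratio of 1 within a mouse, and D/F replicate 2 (blue squares) lies below the other mice in complexes I to V. The assembly factor sum is lower under CCS1477 in all 6 mice, with much of that fall from Ndufaf4.

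Gene by gene, few of the 90 genes changed in D/F cells. The p-values measure the spread between mice. In limma's moderated test on log2(TPM + 1), with p-values adjusted by Benjamini-Hochberg over all tested genes and a call at an adjusted p under 0.05, 1 gene fell (Ndufaf4) and 1 rose (Ndufaf7), and no structural subunit was called. Of the 15501 genes tested, 6.51% were called lower and 5.14% higher. With the mouse as a block, 7 fell (Ndufaf4, Ndufaf6, Ndufaf3, Cox4i2, Cox6a2, Atp5g1 and Ndufs8) and 3 rose (Ndufaf7, Cox7a2l and Uqcrh), against 18.0% lower and 21.4% higher of all genes. Without replicate 2 the same pair, Ndufaf4 and Ndufaf7, was called, and with the block but without replicate 2, 4 were lower and 1 higher. Both calls rested on 3 mice: without replicate 1 or without replicate 3, no gene of the table was called.

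In T/F cells 6 genes fell and 14 rose, against 17.6% lower and 25.8% higher of the 15256 genes tested. Ndufaf4, Ndufaf6, Ndufa4l2, Cox8b, Atp5g1 and Ndufs7 fell. The genes that rose were Ndufv1, Ndufa11, Ndufs4, Ndufa3, Ndufb9, Ndufv3, Ndufc1 and Ndufa13 of complex I, Sdha and Sdhc of complex II, Cox6a1 and Cox7a2l of complex IV, Ndufaf7 and Atp5s, with log2 fold changes from 0.18 (Sdha) to 0.54 (Ndufaf7). With the mouse as a block, 9 fell and 16 rose, against 22.9% and 31.2% of all genes, and the calls of Ndufv1, Ndufa3 and Sdha were lost (adjusted p = 0.053, 0.060 and 0.056). The split depended on the scaling: with libraries rescaled to the same median gene, 8 fell and 5 rose. Only Ndufaf4 was called whichever T/F mouse was left out, and the highest adjusted p of the other 19 genes was then between 0.062 and 0.28.

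In the fit that pooled the genotypes and kept genotype as a term, 8 genes fell and 10 rose, against 19.6% lower and 25.8% higher of 15583 genes tested. With the mouse as a block, 14 fell and 21 rose, against 25.9% and 34.5%, and without the block 5 fell and 3 rose after rescaling to the median gene and 4 fell and 16 rose after quantile normalization. Ndufaf4, Ndufaf6, Ndufaf7 and Cox6a2 were the members that stayed called whichever of the 6 mice was left out, with highest adjusted p-values of 0.00035, 0.026, 0.0013 and 0.045. The other 14 calls were each lost without at least 1 mouse, with a highest adjusted p of 0.054 to 0.13.

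Above 2-fold, only Ndufaf4 was called in either genotype, against 7.28% of all genes (D/F) and 7.33% (T/F). The CCS1477 and DMSO values did not overlap for 6 members that were lower and 6 that were higher in D/F (16.7% and 19.9% of all genes), and for 10 and 24 in T/F (22.6% and 33.5%). The exact permutation test of 1 gene with 3 against 3 cannot go below p = 0.1.

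In these relative levels, most members lay close to no change. In D/F, 75.3% of the 81 structural subunits had a log2 fold change within 0.25 of 0, while in T/F the share was 84.0%. Over all genes tested the shares were 37.1% and 42.4%. Among genes at a mean of 50 TPM or more, the shares were 84.1% and 92.8% of 69 structural subunits, against 44.3% and 50.4% of all 3850 such genes. These shares are descriptions, with no test. The 12 structural subunits under 50 TPM had 25.0% and 33.3% within 0.25, and they include the 6 restricted isoform genes of complex IV named further on.

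In D/F the median log2 change of the genes was 0.04 for complex I, 0.04 for complex II, -0.03 for complex III, -0.01 for complex IV, -0.05 for complex V and -0.21 for the Ndufaf factors, with 0.06 for all genes. The SD between the medians of the 3 mice was 0.07, 0.20, 0.09, 0.10, 0.17 and 0.05, so only the Ndufaf median lay further from 0 than that spread. In T/F the medians were 0.13, 0.15, 0.01, 0.06, 0.05 and -0.08 (SD 0.02, 0.06, 0.004, 0.02, 0.03 and 0.11), with 0.07 for all genes. After rescaling to the median gene, those of complexes III, IV and V turned to -0.07, -0.02 and -0.03 in T/F.

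**Figure D2:**
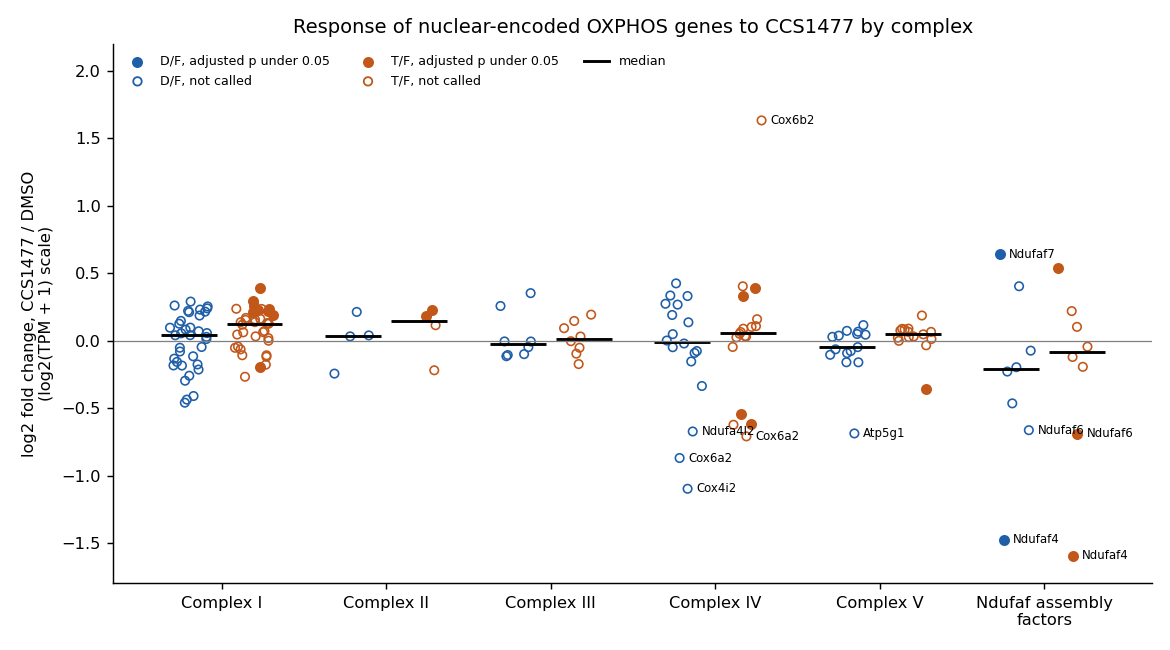
Each point is 1 of 89 genes (Atp5s is left out), with the log2 fold change of CCS1477 over DMSO on the log2(TPM + 1) scale on the vertical axis, in blue for D/F and orange for T/F; filled points had an adjusted p under 0.05 and black bars are medians. Most genes lie near 0, the 2 filled D/F points are Ndufaf4 and Ndufaf7, and Ndufaf4 lies lowest in both genotypes.

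Of the complex I assembly factors, Ndufaf4 changed most. Its protein works with Ndufaf3 early in the building of the arm that binds coenzyme Q. Ndufaf4 (ENSMUSG00000028261; GRCm38 chromosome 4, 24898083 to 24905001) was at 27.8, 31.1 and 44.8 TPM in D/F under DMSO and at 8.32, 12.3 and 14.8 TPM under CCS1477. In T/F it was at 32.9, 33.2 and 39.3 TPM against 10.97, 9.18 and 13.0 TPM. The highest treated value lay below the lowest DMSO value in both genotypes. The log2 fold change was -1.48 ± 0.27 (SE) in D/F (limma adjusted p = 0.024) and -1.59 ± 0.14 in T/F (adjusted p = 0.00080), a level of 0.359 and 0.331 of DMSO on the TPM + 1 scale, and it was lower in 6 of 6 mice. Without D/F replicate 2 the adjusted p in D/F was 0.047, and without replicate 1 or 3 it was 0.16 and 0.20.

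Ndufaf7, a mitochondrial methyltransferase needed for complex I assembly, moved the other way. Ndufaf7 (ENSMUSG00000024082; chromosome 17, 78937136 to 78948052) was at 15.7, 17.5 and 14.6 TPM in D/F under DMSO and at 25.4, 25.4 and 25.4 TPM under CCS1477. In T/F it was at 17.9, 14.7 and 18.2 TPM against 24.3, 23.3 and 27.6 TPM. Treated and DMSO values lay apart in each genotype. The log2 fold change was 0.64 ± 0.14 (SE, limma adjusted p = 0.037) in D/F and 0.54 ± 0.11 (adjusted p = 0.011) in T/F, with 6 of 6 mice higher. The adjusted p was 0.32 and 0.36 without D/F replicate 1 or 3, and 0.064 and 0.050 without T/F replicate 1 or 2.

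Ndufaf6, another early factor of complex I assembly, was at 20.0, 22.6 and 28.5 TPM in D/F under DMSO and at 10.3, 14.0 and 20.7 TPM under CCS1477, so the groups overlapped. In T/F, without overlap, it was at 29.2, 20.9 and 24.5 TPM against 16.9, 16.4 and 11.9 TPM. It fell over both genotypes by 0.68 ± 0.16 on the log2 scale (limma adjusted p = 0.0055), lower in 6 of 6 mice. In T/F alone the log2 fold change was -0.69 ± 0.17 (adjusted p = 0.023), and in D/F alone it was -0.66 ± 0.27 (adjusted p = 0.16, and 0.020 with the mouse as a block).

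Ndufaf3, the partner of Ndufaf4, fell over both genotypes by 0.33 ± 0.12 (limma adjusted p = 0.039), in 5 of 6 mice. Ndufaf2, a late factor, rose by 0.31 ± 0.09 (adjusted p = 0.013), in 6 of 6 mice, though not with libraries rescaled to the median gene (adjusted p = 0.065). Ndufaf1, Ndufaf5 and Ndufaf8 were not called over both genotypes, with log2 fold changes of -0.12, -0.17 and 0.01. Ndufaf5, a hydroxylase that acts on Ndufs7, was lower in 6 of 6 mice and was called with the mouse as a block (adjusted p = 0.021). Each Ndufaf gene averaged between 13.7 and 26.2 TPM over the 12 libraries, below every structural subunit of complexes II, III and V.

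**Figure D3:**
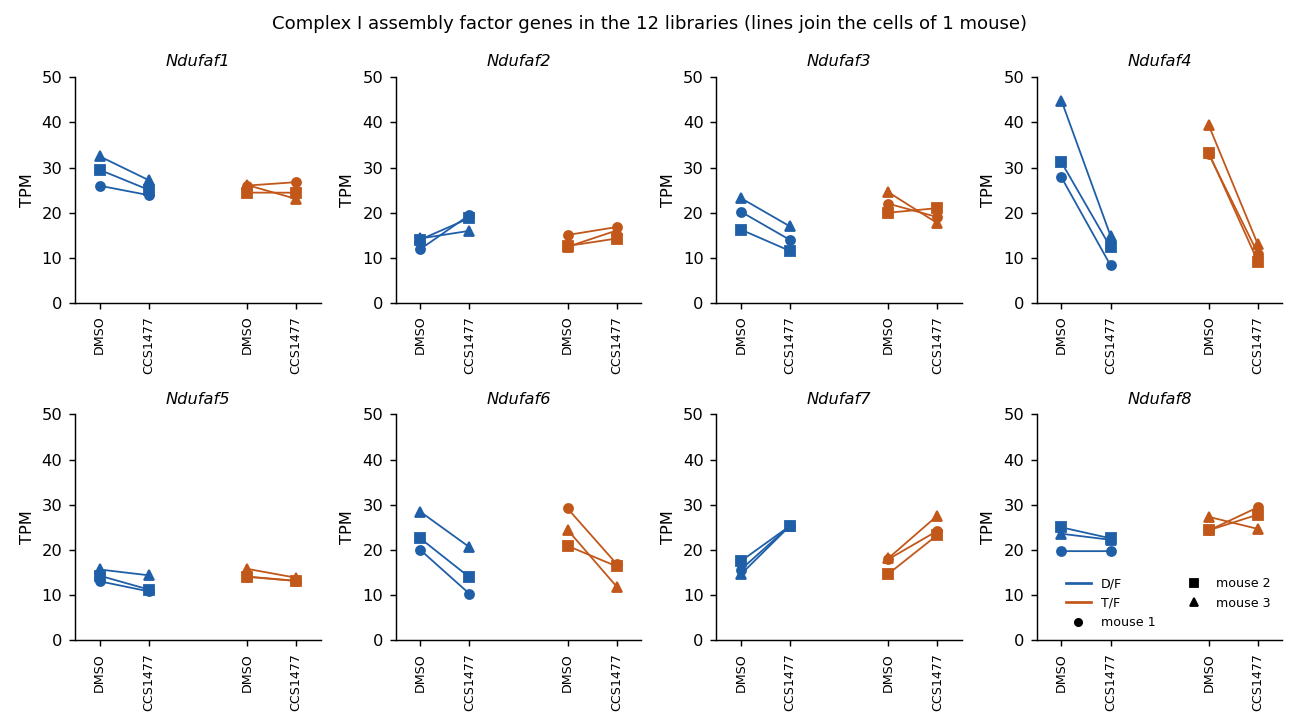
TPM (vertical axis, from 0) of Ndufaf1 to Ndufaf8 in the 12 libraries; lines join the DMSO and CCS1477 cells of 1 mouse, blue for D/F and orange for T/F. Ndufaf4 drops in all 6 mice to between 8.32 and 14.8 TPM, Ndufaf6 is lower in all 6 and Ndufaf7 and Ndufaf2 are higher in all 6.

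The 300-base windows around the starts of the genes that moved in opposite ways, Ndufaf4 and Ndufaf7, are shown with those of the c-ring pair Atp5g1 and Atp5g3 described further on. They run from 250 bases before the start to 50 after it, 5′ to 3′ on the gene's strand, in RefSeq's sequence of GRCm38.p6. Capitals mark matches on either strand to CACGTG (the E-box that Myc can bind), GCGCATGC (NRF1), CCGGAAG (ETS factors such as Gabpa) or AAGATGGCG (YY1). The Ndufaf4 window (chr4:24897833-24898132, plus strand) held 3 NRF1 matches, 2 of which overlap, and the Ndufaf7 window (chr17:78936885-78937184, plus strand) held none of the 4 motifs. The windows of Atp5g1 (chr11:96075582-96075881, minus strand) and Atp5g3 (chr2:73911277-73911576, minus strand) each held 1 E-box.
Ndufaf4: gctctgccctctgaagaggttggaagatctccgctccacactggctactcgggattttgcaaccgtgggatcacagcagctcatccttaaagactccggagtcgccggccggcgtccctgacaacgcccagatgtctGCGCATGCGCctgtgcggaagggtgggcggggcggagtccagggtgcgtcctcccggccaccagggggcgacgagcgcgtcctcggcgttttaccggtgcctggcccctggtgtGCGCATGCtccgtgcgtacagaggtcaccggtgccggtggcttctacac
Ndufaf7: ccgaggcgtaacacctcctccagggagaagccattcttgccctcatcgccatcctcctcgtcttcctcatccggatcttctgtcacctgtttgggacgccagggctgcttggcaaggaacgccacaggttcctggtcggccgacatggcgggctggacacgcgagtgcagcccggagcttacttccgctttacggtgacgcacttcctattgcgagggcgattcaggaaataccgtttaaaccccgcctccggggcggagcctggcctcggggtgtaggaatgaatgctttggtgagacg
Atp5g1: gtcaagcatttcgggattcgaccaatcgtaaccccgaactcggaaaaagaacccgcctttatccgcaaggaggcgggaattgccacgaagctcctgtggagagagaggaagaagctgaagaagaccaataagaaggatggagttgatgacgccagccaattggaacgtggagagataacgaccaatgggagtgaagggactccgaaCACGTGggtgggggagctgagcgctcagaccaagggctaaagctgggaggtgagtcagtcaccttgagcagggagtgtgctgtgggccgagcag
Atp5g3: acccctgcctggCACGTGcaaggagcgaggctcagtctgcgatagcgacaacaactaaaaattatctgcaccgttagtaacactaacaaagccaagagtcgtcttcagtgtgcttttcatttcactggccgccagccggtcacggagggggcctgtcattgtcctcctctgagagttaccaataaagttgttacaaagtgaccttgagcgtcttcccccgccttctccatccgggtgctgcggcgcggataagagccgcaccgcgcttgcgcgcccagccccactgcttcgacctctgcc

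Of the 90 genes, 74 had a window in the table, with 79 windows in all. The ETS motif was in 22.8% of these windows and in 8.86% of all 32851 windows, NRF1 in 13.9% and 2.71%, YY1 in 10.1% and 1.40%, and the E-box in 8.86% and 7.15%. The median log2 fold change of the 6 members with an E-box was 0.08 (D/F) and 0.05 (T/F), against -0.004 and 0.07 in the 68 without. For the 11 with an NRF1 match it was 0.03 and 0.09, against 0.01 and 0.07 in the 63 without. For the 18 with an ETS match it was -0.08 and 0.06, against 0.04 and 0.09 in the 56 without, and for the 8 with a YY1 match -0.07 and 0.08, against 0.03 and 0.06 in the 66 without. These are descriptions of letters in a window and were not tested.

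Complex I, the largest, has an arm in the mitochondrial matrix with an NADH-binding N module and a Q module, and a membrane arm, the P module. The median log2 fold changes were 0.06 (D/F) and 0.13 (T/F) for the 10 N module genes, and 0.05 and 0.13 for the 21 P module genes. Over both genotypes, 2 of the 10 N module genes rose and none fell, and 2 of the 21 P module genes rose and 1 fell, where 25.8% of all genes rose and 19.6% fell. With the mouse as a block, 3 N module genes rose and none fell, and 7 P module genes rose and 2 fell. Of all genes, 34.5% rose and 25.9% fell in that fit.

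Ndufs7, a core subunit that holds the iron-sulfur cluster next to coenzyme Q, was at 112, 99.3 and 117 TPM in D/F under DMSO and 94.0, 89.4 and 105 TPM under CCS1477, with overlap. In T/F, without overlap, it was at 118, 119 and 121 TPM against 105, 107 and 101 TPM. The log2 fold change over both genotypes was -0.19 ± 0.07 (SE, limma adjusted p = 0.040), lower in 6 of 6 mice. Ndufs8, another core iron-sulfur subunit, changed by -0.26 ± 0.10 (adjusted p = 0.048), also in 6 of 6 mice. Both calls were lost when libraries were rescaled to the median gene (adjusted p = 0.081 and 0.083). Ndufa5, an accessory subunit, was lower in 6 of 6 mice but was called only with the mouse as a block (log2 fold change -0.28, adjusted p = 0.20, and 0.0046 with the block).

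Ndufv1, the core subunit of the N module that oxidizes NADH, rose by 0.19 ± 0.06 on the log2 scale over both genotypes (limma adjusted p = 0.034), while in T/F alone its call was lost with the mouse as a block, as given above. Ndufa6, an accessory N module subunit, rose by 0.21 ± 0.07 (adjusted p = 0.035), and the membrane arm subunits Ndufa1 and Ndufb11, encoded on the X chromosome, rose by 0.22 ± 0.07 and 0.19 ± 0.06 (adjusted p = 0.022 and 0.030). Each was higher in 6 of 6 mice. With libraries rescaled to the median gene, Ndufa1, Ndufa6 and Ndufb11 stayed higher but were not called (adjusted p = 0.16, 0.15 and 0.31). Ndufb2, a membrane arm subunit whose exons overlap Braf on the other strand, fell by 0.31 ± 0.10 (adjusted p = 0.028), with means of 133 ± 6.60 TPM under DMSO and 99.1 ± 20.2 TPM under CCS1477 for D/F, and 132 ± 6.42 and 116 ± 2.31 TPM for T/F (SD, n = 3). The levels within complex I ran from Ndufa11, at a mean of 14.4 TPM, to Ndufab1, the mitochondrial acyl carrier protein, at 215 TPM. Ndufab1 was not called (adjusted p = 0.47 over both genotypes).

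Complex II, succinate dehydrogenase, is the only complex with all of its subunits encoded in the nucleus. Its membrane anchors, Sdhc and Sdhd, went opposite ways in every mouse. Sdhc was at 79.9, 66.9 and 82.3 TPM in D/F under DMSO and 95.3, 75.4 and 95.9 TPM under CCS1477, and at 88.4, 82.8 and 85.4 TPM against 99, 99.5 and 102 TPM in T/F. Sdhd was at 174, 104 and 185 TPM against 147, 85.3 and 161 TPM in D/F, and at 184, 181 and 167 TPM against 160, 159 and 138 TPM in T/F. The groups overlapped in D/F and not in T/F, for both genes. Sdhc rose over both genotypes by 0.22 ± 0.08 on the log2 scale (limma adjusted p = 0.045; 0.35 after rescaling to the median gene). Sdhd changed by -0.23 ± 0.17 and was not called (adjusted p = 0.30), but it was with the mouse as a block (adjusted p = 0.0025). Sdha, the flavoprotein, rose in T/F by 0.18 ± 0.06 (adjusted p = 0.049; 0.056 with the mouse as a block) and was not called in D/F, at 0.04 ± 0.14. Sdhb, the iron-sulfur subunit, was not called, at 0.03 ± 0.17 (D/F) and 0.11 ± 0.06 (T/F).

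Complex III passes electrons from coenzyme Q to cytochrome c, and none of its 8 genes taken by the symbol rule was called in either genotype alone. Cyc1, whose product cytochrome c1 is also a subunit of complex III, lies outside that rule and is given further on. Over both genotypes only Uqcrh, the hinge subunit that meets cytochrome c1, was called. Uqcrh was at 186, 171 and 192 TPM in D/F under DMSO and at 248, 212 and 243 TPM under CCS1477, without overlap, and at 208, 183 and 188 TPM against 223, 212 and 205 TPM in T/F, with overlap. It rose by 0.25 ± 0.08 on the log2 scale (limma adjusted p = 0.019; 0.23 after rescaling to the median gene), in 6 of 6 mice. The levels ran from Uqcrfs1, the Rieske iron-sulfur protein, at a mean of 92.4 TPM, to Uqcrb at 261 TPM. Uqcrfs1 was higher in 6 of 6 mice and was called only with the mouse as a block (log2 fold change 0.17, adjusted p = 0.31, and 0.0496 with the block).

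Complex IV has isoform genes used in particular tissues beside its main ones. The main isoforms were abundant and steady, with means over the 12 libraries of 277 TPM for Cox4i1, 350 TPM for Cox6a1, 582 TPM for Cox6b1, 192 TPM for Cox7a2, 451 TPM for Cox8a and 218 TPM for Ndufa4. Their log2 fold changes over both genotypes ran from 0.00 to 0.26 and none was called, although Cox6a1 rose in T/F (0.39 ± 0.07, limma adjusted p = 0.0058) and, with the mouse as a block, over both genotypes (adjusted p = 0.020). Cox6b1 had the highest mean of the complex, and Cox8b, at 2.38 TPM, the lowest.

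The restricted isoforms were low, and 2 of them, Cox4i2 and Cox6a2, were called lower over both genotypes. Ndufa4l2 and Cox8b were called lower in T/F alone. Cox4i2, known from lung and from hypoxic cells, was at 34.0, 15.6 and 17.2 TPM in D/F under DMSO and at 13.9, 5.03 and 10.97 TPM under CCS1477, without overlap. In T/F it was at 6.20, 17.6 and 10.2 TPM against 5.18, 9.92 and 5.09 TPM, with overlap. It fell over both genotypes by 0.86 ± 0.31 on the log2 scale (limma adjusted p = 0.041), in 6 of 6 mice, and the adjusted p was 0.058 without D/F replicate 2 and up to 0.099 without another mouse.

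Cox6a2, the heart and skeletal muscle form of Cox6a1, was at 7.92, 5.37 and 6.90 TPM in D/F under DMSO and at 3.56, 1.68 and 5.01 TPM under CCS1477, without overlap, and at 8.45, 9.03 and 4.78 TPM against 5.50, 4.21 and 2.70 TPM in T/F, with overlap. It fell over both genotypes by 0.79 ± 0.22 (limma adjusted p = 0.012), in 6 of 6 mice. Ndufa4l2, the hypoxia-induced paralog of Ndufa4, whose exons overlap the far more abundant Shmt2 on the other strand, was at 1.96 to 6.87 TPM under DMSO and 0.603 to 4.49 TPM under CCS1477 in D/F. It fell in T/F by 0.62 ± 0.18 (adjusted p = 0.034), from values of 1.70, 3.21 and 1.95 TPM to 0.956, 1.18 and 1.17 TPM. Ndufa4l2 was lower in 6 of 6 mice, and over both genotypes it was called only with the mouse as a block (adjusted p = 0.097, and 0.0084 with the block).

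Other restricted isoforms did not move the same way in all mice. Cox8b fell in T/F by 0.54 ± 0.12 (limma adjusted p = 0.013), from 3.39, 3.61 and 3.23 TPM to 1.55, 2.27 and 2.31 TPM, and in D/F it was at 3.31, 2.67 and 0 TPM against 1.67, 2.78 and 1.76 TPM, where one DMSO library listed it at 0. Cox7a1, the muscle form of Cox7a2, had a log2 fold change of 0.41 ± 0.21 over both genotypes (adjusted p = 0.14, and 0.027 with the mouse as a block), in 5 of 6 mice. Cox6b2, known from testis, was at 4.33, 20.1 and 6.78 TPM against 8.26, 35.5 and 4.14 TPM in D/F, and at 0, 2.14 and 6.80 TPM against 7.76, 4.77 and 13.5 TPM in T/F, where one DMSO library listed it at 0. It was not called (adjusted p = 0.22 over both genotypes), and its 3 values within each group spread widely.

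Cox7a2l, which is related to Cox7a2 and is known to join complexes III and IV into supercomplexes, was at 137, 198 and 133 TPM in D/F under DMSO and at 176, 249 and 165 TPM under CCS1477. In T/F it was at 140, 134 and 145 TPM against 176, 175 and 179 TPM. All 6 mice were higher, and the groups overlapped only in D/F, where replicate 2 had the highest value of each group. Cox7a2l rose over both genotypes by 0.33 ± 0.12 on the log2 scale (limma adjusted p = 0.043; 0.00027 without D/F replicate 2) and in T/F by 0.33 ± 0.06 (adjusted p = 0.0070).

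**Figure D4:**
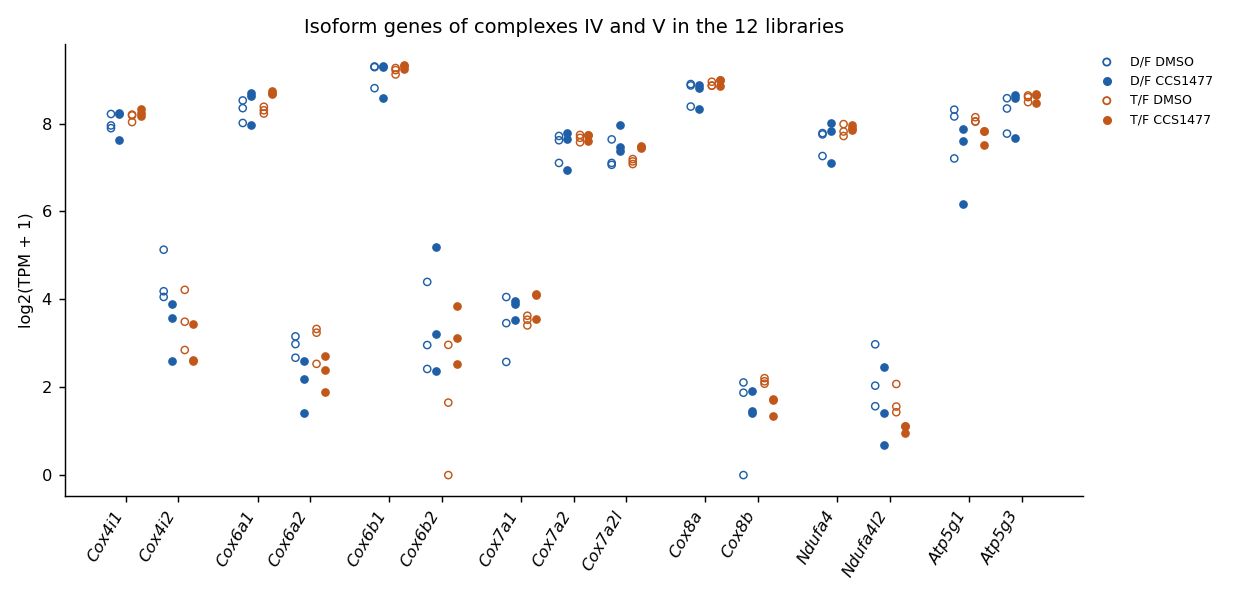
log2(TPM + 1) (vertical axis) of the isoform genes of complexes IV and V in each of the 12 libraries, open points for DMSO and filled points for CCS1477, blue for D/F and orange for T/F. The main isoforms lie high and change little, while Cox4i2, Cox6a2 and Ndufa4l2 are low and lie lower under CCS1477.

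Complex V had no gene called in D/F, and 1 of its 15 genes was called in T/F. Its levels ran from Atp5j2, a membrane subunit, at a mean of 74.3 TPM, to Atp5b, the catalytic beta subunit, at 926 TPM, the highest of all 90 genes. Atp5b was at 1032, 641 and 1037 TPM in D/F under DMSO and 1015, 585 and 1046 TPM under CCS1477, and at 974, 960 and 914 TPM against 993, 1017 and 903 TPM in T/F. Its log2 fold change over both genotypes was -0.01, with an adjusted p of 0.97.

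Atp5g1 and Atp5g3 encode the same mature c subunit of the proton-driven ring, behind different import signals. Atp5g1 (ENSMUSG00000006057; chromosome 11, 96068852 to 96075670) was at 285, 147 and 318 TPM in D/F under DMSO and at 192, 70.5 and 233 TPM under CCS1477, with overlap. In T/F, without overlap, it was at 282, 263 and 264 TPM against 225, 226 and 181 TPM. It fell in T/F by 0.36 ± 0.11 on the log2 scale (limma adjusted p = 0.037). Over both genotypes it changed by -0.52 ± 0.28 (adjusted p = 0.15), lower in 6 of 6 mice, with an adjusted p of 0.0042 with the mouse as a block and of 0.0028 without D/F replicate 2. Atp5g3, at a mean of 351 TPM, was not called and changed by 0.05 ± 0.18 over both genotypes (95% confidence interval -0.34 to 0.44).

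A copy of Atp5g1, Gm10039, is 99.8% identical to its coding sequence and had a mean of 122 TPM, so reads could be split between both. The sum of both rows within a mouse was 0.658 ± 0.115 of DMSO in D/F and 0.794 ± 0.082 in T/F (SD, n = 3), against 0.629 ± 0.131 and 0.781 ± 0.089 for Atp5g1 alone. The direction was therefore the same with the copy included. Atp5s, which is not a structural subunit, rose in T/F by 0.53 ± 0.12 (limma adjusted p = 0.015) and over both genotypes by 0.39 ± 0.13 (adjusted p = 0.035).

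The other genes of the pathway, from lists of fixed membership, changed in both directions. The counts of called genes of each list stand beside shares over all genes of 19.6% lower and 25.8% higher over both genotypes (25.9% and 34.5% with the mouse as a block), 6.51% and 5.14% in D/F (18.0% and 21.4%) and 17.6% and 25.8% in T/F. Of 43 listed assembly factors other than Ndufaf genes, 41 had a row, and 11 fell and 6 rose over both genotypes. In D/F alone 3 fell (Sco2, Uqcc1 and Bcs1l) and none rose (9 and 3 with the mouse as a block), and in T/F alone 11 fell and 3 rose. Their median log2 fold change over both genotypes was -0.01, against 0.07 for all genes. Sco2, a copper chaperone of complex IV, had the largest fall, with means of 13.0 ± 4.30 TPM under DMSO and 1.03 ± 0.57 TPM under CCS1477 for D/F, and 11.9 ± 1.91 and 0.904 ± 0.65 TPM for T/F (SD, n = 3), by 2.79 ± 0.20 on the log2 scale over both genotypes (limma adjusted p = 2.4e-06). Uqcc1, a complex III factor, fell by 0.63 ± 0.06 and Lyrm2, a complex I factor, rose by 0.69 ± 0.10 (adjusted p = 2.1e-05 and 0.00029).

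The genes of cytochrome c and coenzyme Q, a list that also holds Cyc1, split. Of 16 genes, 5 fell and 6 rose over both genotypes, against 19.6% and 25.8% of all genes. In D/F alone none fell and 1 rose, and the blocked fit called 5 lower and 5 higher. The cytochrome c gene Cycs was at 82.2 ± 22.5 and 58.7 ± 18.7 TPM in D/F and at 87.7 ± 5.82 and 68.5 ± 5.55 TPM in T/F under DMSO and CCS1477 (SD, n = 3). It fell in T/F by 0.35 ± 0.09 on the log2 scale (limma adjusted p = 0.021) and missed the threshold over both genotypes (adjusted p = 0.063; 0.00036 with the mouse as a block). Cyc1, cytochrome c1, was not called (0.11 ± 0.20, adjusted p = 0.68). Coq8a and Coq10a, which act in coenzyme Q synthesis and handling, rose by 1.44 ± 0.39 and 0.97 ± 0.14 (adjusted p = 0.011 and 0.00022), and Coq4 fell by 0.77 ± 0.14 (adjusted p = 0.0011).

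Of 18 genes of pyruvate dehydrogenase and the tricarboxylic acid cycle, which feed the chain, 2 fell and 2 rose over both genotypes (6 and 2 with the mouse as a block), where 19.6% and 25.8% of all genes did (25.9% and 34.5%). Idh3a, a subunit of isocitrate dehydrogenase, fell by 0.53 ± 0.18 (limma adjusted p = 0.029; 0.050 after rescaling to the median gene), and Pdhb and Ogdh rose by 0.40 ± 0.09 and 0.29 ± 0.07 (adjusted p = 0.0034 and 0.0041; 0.068 for Pdhb after that rescaling). Of 9 carrier genes with a row, 1 fell and 4 rose (2 and 4 with the block). Slc25a4, an ADP/ATP carrier, rose by 0.73 ± 0.11, Mpc2, of the pyruvate carrier, rose by 0.44 ± 0.08, and Vdac2, a channel of the outer membrane, fell by 0.53 ± 0.13 (adjusted p = 0.00023, 0.0011 and 0.0061).

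The 13 subunits encoded by mitochondrial DNA were not called in either genotype nor over both. An unadjusted p under 0.05 in limma's test was reached by 0, 2 and 0 of them (D/F, T/F and both), against 30.4%, 51.7% and 52.1% of all genes. The blocked fit called 1 lower in D/F (mt-Nd1), 1 higher in T/F (mt-Co2) and 1 lower over both (mt-Nd3). In D/F all 13 lay below 0 on the log2 scale, with a median of -0.21, and in T/F 12 lay above 0, with a median of 0.15. The T/F response minus the D/F response lay above 0 for all 13 (median 0.35). In limma's test 6 had an unadjusted p under 0.05 (659 of 15583 genes) and none was called. Under DMSO all 13 were lower in T/F than in D/F (median -0.24). There 5 had an unadjusted p under 0.05 (939 of 15265 genes) and none was called. Of 12 genes that maintain or transcribe mitochondrial DNA, 4 fell and 2 rose over both genotypes (4 and 6 with the block), against 19.6% and 25.8% of all genes (25.9% and 34.5% with the block). The helicase gene Twnk fell by 1.10 ± 0.11 and the elongation factor gene Tefm by 0.69 ± 0.08 (adjusted p = 2.0e-05 and 6.8e-05), while Polg, the polymerase, rose by 0.65 ± 0.13 (adjusted p = 0.0014). Tfam, which packages mitochondrial DNA, stayed at 53.1 ± 5.70 and 52.6 ± 6.35 TPM in D/F and at 55.5 ± 4.22 and 54.5 ± 3.11 TPM in T/F.

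The transcription regulators included Myc, which fell most of all listed genes. Of 9 with a row (Ppargc1a was not analysed here), 3 fell in each genotype and over both: Myc, Pprc1 and Ppargc1b. Over both genotypes 2 rose, Nrf1 and Gabpb2. Myc was at 378 ± 84.7 TPM in D/F under DMSO and at 19.2 ± 1.48 TPM under CCS1477, and at 268 ± 40.9 and 23.8 ± 4.01 TPM in T/F (SD, n = 3). The log2 fold changes of Myc were -4.21 ± 0.20 and -3.45 ± 0.16 (SE, limma adjusted p = 0.0013 and 0.00031). The PGC-1-related coactivators Pprc1 and Ppargc1b fell over both genotypes by 1.83 ± 0.13 and 1.34 ± 0.08 (adjusted p = 2.1e-06 and 8.9e-07). Nrf1 rose by 0.26 ± 0.09 (adjusted p = 0.041; 0.055 after rescaling to the median gene). Gabpa, whose exons overlap those of Atp5j on the other strand, rose in T/F by 0.27 ± 0.08 (adjusted p = 0.034; 0.055 with the mouse as a block) and was not called over both genotypes.

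**Figure D5:**
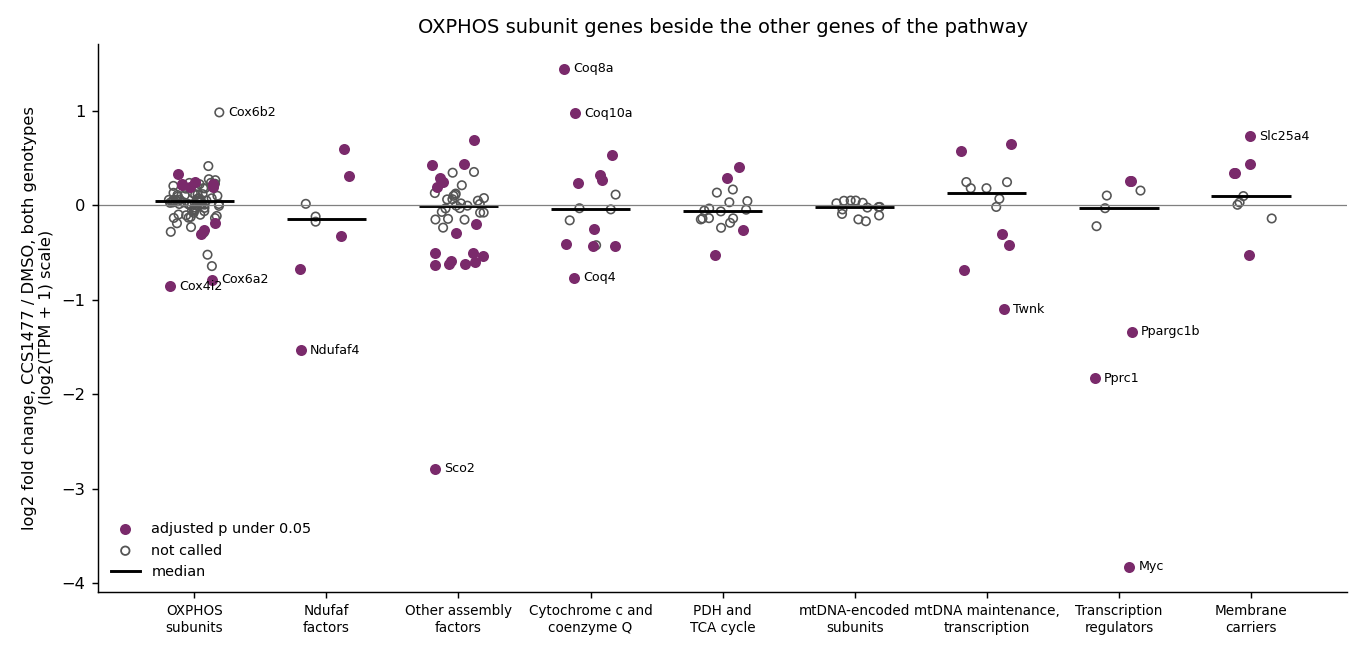
log2 fold change of CCS1477 over DMSO over both genotypes (vertical axis, log2(TPM + 1) scale) of the 81 structural subunits, the 8 Ndufaf factors and 7 lists of other genes of the pathway; filled points had an adjusted p under 0.05, and bars are medians. The medians lie near 0, the structural subunits and the 13 mtDNA-encoded subunits lie close to it, and Myc, Sco2, Pprc1, Ndufaf4 and Ppargc1b lie lowest. For the mtDNA-encoded subunits this pools falls in D/F with rises of most in T/F.

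The response of the 90 genes was also compared between the genotypes. No member was called for the difference of the T/F and D/F responses, where 0.0% of 15583 genes were called (0 members and 659 genes at an unadjusted p under 0.05). The difference ranged from -0.82 to 1.30 on the log2 scale with a median of 0.06, and 69 of the 90 genes changed in the same direction in D/F and T/F. With the mouse as a block, 6 members had an unadjusted p under 0.05 and none was called. Ndufaf4 differed by -0.12 ± 0.32 (SE).

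Under DMSO, no member was called between T/F and D/F cells, against 0.0328% of 15265 genes. Cox7c, a complex IV subunit, was the only member at an unadjusted p under 0.05. Of the 90 genes, 70 had a higher mean in T/F, with a median log2 difference of 0.11, in a comparison that holds D/F replicate 2, where 66 of the 90 genes had the lowest value of the D/F group.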

How the data were processed

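RNA-seq was analysed in 12 libraries of 6 mice. The deposited values are TPM, made by the authors with AltAnalyze, and the submitters' processing notes name kallisto and mm10. The transcript annotation and filters are not given in the sources used here. The study's methods state the same sequencing depth for all samples, but the table holds no read counts, so the depth behind each value is unknown and its error is taken from the spread of 3 mice. The labels' protocol names both ribosomal RNA depletion and an mRNA kit. Every gene reached 2.00 TPM in at least 1 library.

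Values were analysed as log2(TPM + 1), for genes at a mean of 1 TPM or more in at least 1 group of the comparison, with limma 3.58.1 in R 4.3.3. Fold changes are on that scale, which understates those of low genes. The p-values were adjusted by Benjamini-Hochberg over all genes tested, in 5 comparisons: CCS1477 against DMSO in D/F, in T/F and over both, the difference of the responses, and genotype under DMSO. The scripts were tested on simulated data.

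Samples with the same number come from the same mouse, per the labels, and their deviations from the group means correlated at 0.34 to 0.65 across genes. The fit with the mouse as a block is given where it changed the call of a named gene or clearly moved a count of calls. The Q module is not reported as a set here. Genes were placed in complexes by hand, and positions, overlaps and copies (blastn 2.17.0, identity of 95% or more over 80% or more of the coding sequence) were taken from GENCODE vM21 (GRCm38). The members and lists were chosen with earlier results of these data known. Named genes are those above 2-fold, up to 3 falls and 3 rises per set that were called over both genotypes and alike in 6 mice, all of complex II, the isoform genes and the highest and lowest of each complex. Ndufa5, Ndufv1, Ndufaf1, Ndufaf3, Ndufaf5, Ndufaf8, Atp5s, Cox7c, Bcs1l, Gabpb2, mt-Nd1, mt-Nd3 and mt-Co2 were named after their values were seen, as were the genes listed only by their calls. Lists of the pathway give up to 3 called genes each, and regulators of interest. Alternatives were another pseudocount (0.1), filters (5 TPM or none), other scalings, eBayes with trend, a shared fit, the block and leaving out each mouse.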

Additional observations from a re-analysis of the deposited data

Results flagged for a closer look

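In 5 structural subunits, all 3 D/F mice were lower under CCS1477 and all 3 T/F mice higher. The difference of the T/F and D/F responses on the log2 scale was 0.25 for Ndufb3, 0.32 for Ndufs6, 0.25 for Ndufv2, 0.10 for Cox8a and 0.29 for Atp5h. The tests of the differences by limma gave unadjusted p-values of 0.24, 0.35, 0.25, 0.69 and 0.17, and an adjusted p of 0.9999 in each. That fit does not use the pairing by mouse. With the mouse as a block, Ndufv2 and Atp5h were among the 6 members at an unadjusted p under 0.05, and none was called. In T/F replicate 3 the rises of Cox8a (464.2 to 464.5 TPM) and Ndufs6 (114.65 to 114.73 TPM) were slight. The share of all genes with this pattern is not given here.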

How the results depend on the processing

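The counts of called members moved with the test. None of 77 called results of single genes turned, while 31 of 100 results that were not called changed sign under at least 1 alternative. The block, the shared fit, eBayes with trend and the filters leave the log2 fold change as it is, so no sign could turn under them. Called results were also picked for lying away from 0, so the 2 counts are not a like comparison. In D/F, 1 lower and 1 higher call became 7 and 3 with the mouse as a block, 3 and 4 with a shared fit of the 4 groups, 4 lower with the block and without D/F replicate 2 (chosen after seeing the data) and 2 higher with quantile normalization. In T/F, 6 and 14 became 9 and 16 with the block, 1 and 2 with the shared fit and 5 higher with rescaling to the median gene. Over both genotypes, 8 and 10 became 14 and 21 with the block, 13 and 21 with the block and without D/F replicate 2, 5 and 3 with rescaling to the median gene, and 4 and 16 with quantile normalization. At more than 2-fold, 1 lower and 0 higher were called in each. Leaving out 1 mouse gave 0 to 1 lower and 0 to 1 higher in D/F, 1 to 3 and 0 to 6 in T/F, and 3 to 9 and 1 to 19 over both. The block lost the T/F calls of Ndufa3, Ndufv1, Sdha and Gabpa given with the results. Of the genes named with a value, it also gained calls not given there: those of Ndufa11 over both genotypes, of Cox4i2, Cox6a2, Cox7a1, Ndufa1, Ndufb11, Sdhd, Atp5h and Mpc2 in T/F, and of Coq4, Coq8a, Cycs, Idh3a, Lyrm2, Nrf1, Pdhb, Polg and Vdac2 in D/F. Ndufb9, Ndufc1 and Ndufv3, named for their T/F calls, were called over both genotypes with the block, though not without it.

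Medians by complex moved by more than the spread between mice with scaling. With quantile normalization those of complexes III and IV in D/F were 0.12 and 0.14, and those of complexes I to V in T/F were 0.17, 0.22, 0.12, 0.13 and 0.11. With rescaling to the median gene those of T/F were 0.046, 0.067, -0.068, -0.024 and -0.035. Without 1 mouse the D/F medians of complexes I to V ran from 0.001 to 0.06, -0.07 to 0.14, -0.05 to 0.02, -0.06 to 0.07 and -0.12 to 0.07, and those of T/F from 0.11 to 0.12, 0.13 to 0.18, 0.0068 to 0.017, 0.016 to 0.082 and 0.016 to 0.062. The Ndufaf median ran from -0.23 to -0.18 in D/F and from -0.11 to -0.02 in T/F. No read counts were analysed here, so the precision set by depth is unknown.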

Other observations

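Of the 90 genes, 13 had a near-identical copy elsewhere in the genome that has a row of its own in the table. For most, the copy was low, at 0.54 to 12.4 TPM, and 2 copies were abundant. Gm10039, the copy of Atp5g1, is described above. Ndufb4c, a pseudogene left out by the rule, is 100% identical to the coding sequence of the complex I gene Ndufb4 and had a mean of 169 TPM, against 33.8 TPM for Ndufb4. The sum of Ndufb4 and Ndufb4c within a mouse was 0.867 ± 0.104 of DMSO in D/F and 1.01 ± 0.010 in T/F (SD, n = 3), against 0.731 ± 0.158 and 0.929 ± 0.178 for Ndufb4 alone, so the level and the change of Ndufb4 are uncertain. The exons of 21 of the 90 genes overlap another gene of the table on the opposite strand, and none overlaps one on the same strand.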
